A study of Mus musculus with 2 samples.

Results

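The 316 cells described here are wounded anorectal cells that carry the name Hybrid in the deposited table of filtered cells. Their barcodes were taken from that table and their unique molecular identifier (UMI) counts from the count matrix of the same library. They made up 7.62% of the 4147 named wounded cells and held 3.42% of the UMIs of those cells. The other 3831 named wounded cells carried the names Rectum (397 cells), Basal (573), Suprabasal (1032), Regeneration (991) and Wound_Stress (838). Over both libraries of the study 5086 cells had a name, and none of the 939 named cells of the unwounded library was called Hybrid. The wounded library held 88260050 UMIs over 17216 barcodes, of which 5225 passed the filters of the study.

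The study profiled the junction of anal canal and rectum by droplet single-cell RNA sequencing, in a normal and in a wounded condition with 1 library each. K17CreERT2;R26RGFP mice on the C57/BL6J background were used. The methods give wounded mice an age of 2 to 4 months, while the reporting form of the paper gives a younger age. No separate age is given for the normal library. The mice received 2 injections of tamoxifen. The wounded animals then had the rectal crypts next to the transition zone removed with hot EDTA and an electric brush. Cells were prepared 1 week later from a pool of at least 5 mice, with a gate against doublets, sorted as positive for Epcam and negative for CD45, CD11b, CD31 and PDGFRa. The Cre recombinase is driven by the Krt17 promoter, and the authors removed clusters of hair follicle, fibroblast and anal gland cells before they named the rest. With 1 pooled library per condition no test between animals was possible. Levels are UMIs summed over cells and scaled to 1000000 UMIs (CPM), and the ranges in brackets are exact 95% intervals that cover counting error only. The names were derived from the same counts, so all differences between names are descriptions.

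The anorectal transition zone is the line where the layered squamous lining of the anal canal, with its keratins Krt5 and Krt14, meets the single-layered glandular epithelium of the rectum, with Krt8 and Krt18. Krt17 marks the cells of the transition zone, basal and suprabasal, and is also a keratin of hair follicles and of wounded epidermis. Muc13 is a membrane mucin of the gut epithelium, and Pyy encodes peptide YY, a hormone of the enteroendocrine L cells of the colon and rectum. Enteroendocrine cells are rare, scattered cells of the gut lining that store peptide hormones or serotonin in granules.

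The Hybrid cells were shallow. Their median was 2390 UMIs per cell (500 to 33233), with a median of 951 detected genes, against a median of 10589 UMIs in the other named cells. Among the other names the medians ran from 8532 UMIs in Wound_Stress to 12616 UMIs in Regeneration. In all, 132 Hybrid cells were under 2000 UMIs and 63 were under 1000 UMIs. The median share of mitochondrial UMIs was 8.77%, close to the 8.49% of the other named cells. The plot of UMIs per cell shows the difference in depth, which bears on every share of cells with a UMI given here.

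**Figure D1:**
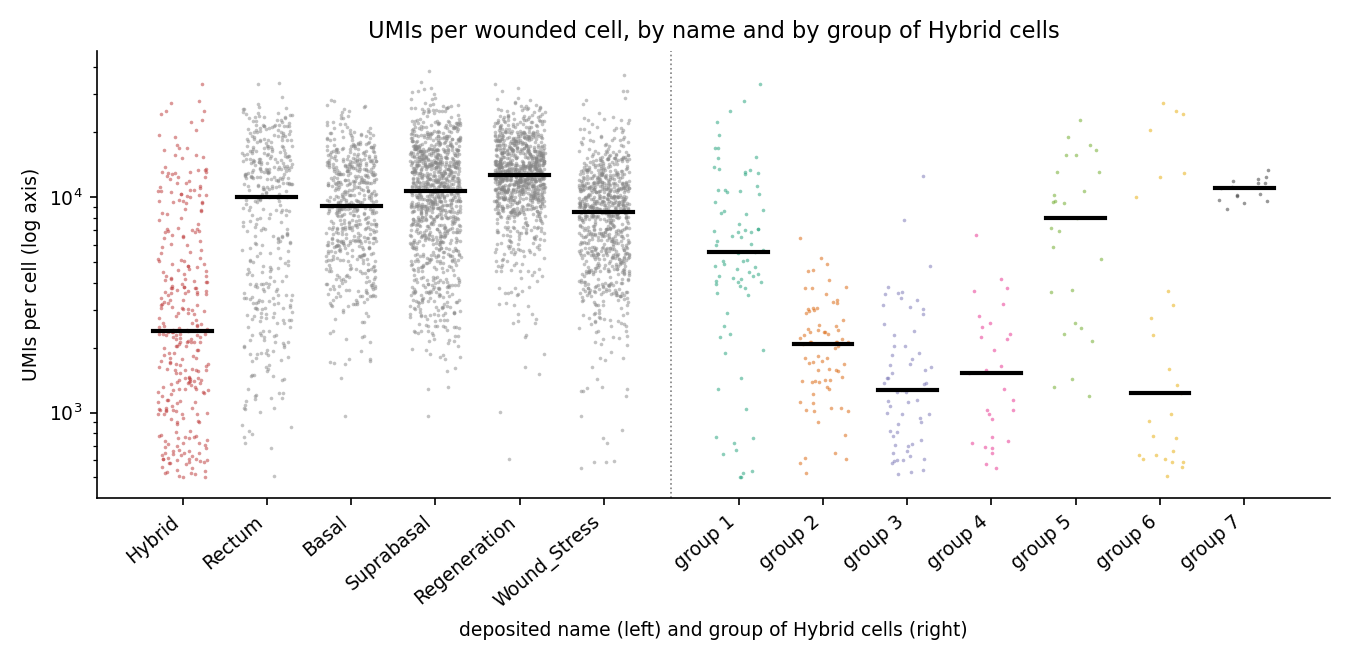
UMIs per wounded cell on a log axis, for the 6 deposited names (left of the dotted line) and for the 7 groups of cells found within Hybrid (right). Points are cells and black bars are medians. The Hybrid median lies at 2390 UMIs, while the medians of the other names lie at 8532 UMIs or more, and the 15 cells of group 7 lie between 8808 and 13294 UMIs.

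The label markers did not move together in the Hybrid cells. Krt17 lies on the minus strand of chromosome 11, from 100256217 to 100261029 (ENSMUSG00000035557, GRCm38). Its level in Hybrid was 1148 CPM (1094 to 1204). This was above Rectum at 134 CPM and Basal at 381 CPM, near Regeneration at 1004 CPM, and below Suprabasal at 7100 CPM. Against all other named cells the log2 ratio of Krt17 was -1.04 (-1.11 to -0.97), but it was 0.07 when each cell was scaled first and the cells were then averaged.

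Krt8 lies on the minus strand of chromosome 15, from 101996698 to 102004482 (ENSMUSG00000049382). Its Hybrid level was 430 CPM (397 to 465). Rectum had 2386 CPM of Krt8, and the stratified names had between 27.5 CPM in Basal and 131 CPM in Suprabasal. Muc13, on the plus strand of chromosome 16 from 33794037 to 33819934 (ENSMUSG00000022824), had 74.8 CPM (61.6 to 90.1), against 653 CPM in Rectum and 8.36 CPM in Basal. For both genes Hybrid therefore lay between the glandular and the stratified names.

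Pyy, on the minus strand of chromosome 11 from 102106676 to 102107832 (ENSMUSG00000017311), had 16067 CPM (15864 to 16273) in Hybrid and 3.68 CPM in the other named cells. These were 23828 UMIs from 22 of the 316 cells, and 23823 of the UMIs were in 19 cells of a single group described below. The other names held 154 Pyy UMIs in 110 of 3831 cells. The levels of Krt8, Muc13 and Pyy in Hybrid depended on 2 small sets of cells. Without groups 5 and 7, which are 42 of the 316 cells, Krt8 was at 112 CPM (92.6 to 133), Muc13 at 23.1 CPM (14.9 to 34.0) and Pyy at 4.61 CPM (1.5 to 10.8).

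**Figure D2:**
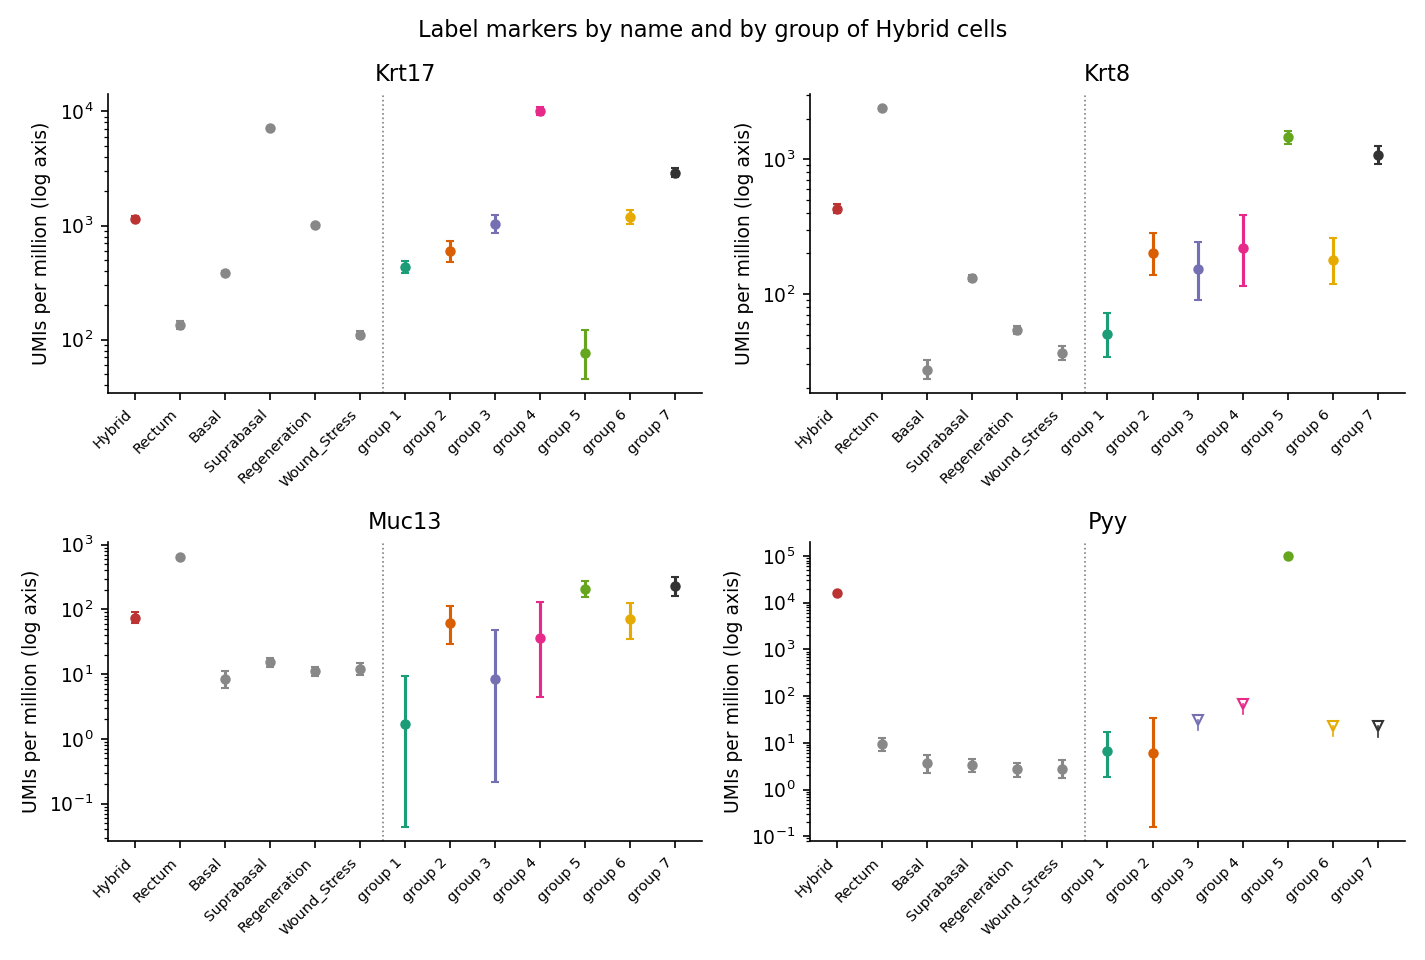
Levels of the 4 label markers in CPM on log axes, for the deposited names (left of the dotted lines) and the 7 groups within Hybrid (right). Points are levels, bars are exact Poisson 95% intervals, and open triangles mark the upper limit where no UMI was counted. Pyy reaches 100959 CPM in group 5, where Krt17 is at 76.3 CPM, and Krt17 reaches 10034 CPM in group 4, where no Pyy UMI was counted.

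The comparison over all genes asked which genes set the Hybrid cells apart from the other named wounded cells. Of 13526 genes with at least 30 UMIs, 1447 were higher in Hybrid (10.7%) and 597 were lower (4.41%), by at least 2-fold with an interval without 0. With the whole numbers of the deposited table in place of the UMIs, 579 genes were higher and 1922 lower. Without group 5, 917 genes were higher. The 25 genes with the largest ratio were led by peptide hormones and granule proteins. The somatostatin gene Sst had a log2 ratio of 13.65 (11.17 to 18.96), with 456 UMIs in 3 Hybrid cells against 1 UMI in the others. Resp18, a protein of endocrine granules, was at 13.27 with 349 UMIs against 1. The proglucagon gene Gcg was at 12.89 (11.53 to 14.77) and Insl5, an insulin-like peptide of colonic L cells, at 12.47 (11.66 to 13.43). Chgb and Chga, the granins that pack hormone granules, were at 11.42 (10.87 to 12.02) and 11.11 (10.30 to 12.07). Of the 25 genes, 19 had most of their Hybrid UMIs in group 5, 4 in group 1 (Krt35, Krt73, Krt75 and S100a3) and 2 in group 2 (Ccl21a and Fgl2). Without group 5, 9 of the 25 were still higher.

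The marker lists were summed next, over all their members. The 15 enteroendocrine genes together were at 3942 CPM in Hybrid and 286 CPM in the other names. The member not called higher among those tested was Cpe, a carboxypeptidase of granules, which was at 262 CPM in Hybrid and at 804 CPM in Suprabasal. Among the hormones the exception was Cck, with 6953 UMIs in the other names. The 12 gut hormone genes were at 19134 CPM against 172 CPM, and the 10 inner root sheath genes at 1896 CPM against 158 CPM. The 8 lymphatic genes were at 482 CPM against 29.6 CPM, and the 7 hair shaft genes in the matrix at 370 CPM against 2.22 CPM. Without group 5 the enteroendocrine genes were at 310 CPM in Hybrid. The gut hormone genes were then at 107 CPM, below the 172 CPM of the other names. In the other names most UMIs of the enteroendocrine list were Cpe, and most UMIs of the gut hormone list were Cck. The sums of the other names therefore describe mainly these genes. A gene with few UMIs outside Hybrid reached the 30 UMIs only through Hybrid and could then only come out higher. Counts of list members called higher therefore describe those that passed the filter, and nothing is read from them against the background. The lists were written with earlier results of these data known.

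Lower genes were of other kinds. Among named genes with a UMI in Hybrid, the smallest ratio belonged to Ppbp, a platelet chemokine (-7.18, -12.49 to -4.70, with 1 UMI). Igkc and Sprr2d had no UMI in Hybrid and exact upper limits of -5.81 and -4.93, and Psca, a surface protein of mucosal epithelia, was at -4.02. In the other names 5840 UMIs of Igkc and 3170 of Sprr2d came from 24 and 31 cells. There 4102 UMIs of Ppbp and 7773 of Psca came from 46 and 79 cells. Without the cells of highest Scrublet score the limit of Igkc gave no direction. Spink4, Mptx1 and Retnlb, which encode secreted proteins of the gut epithelium, had ratios of -2.99, -2.95 and -3.22. Of 9 goblet cell genes 6 were lower and none was higher, beside a background of 4.41% lower. Of 12 genes of wounding and inflammation 8 were lower, among them Il33, Lcn2, Cxcl1 and Sprr1a, and Sprr1b was higher. The wound keratins Krt6a and Krt6b were lower, Krt16 was on neither side, and Krt17 was lower in the summed UMIs but not as the mean of per-cell CPM, as given above.

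Rectum and Basal were compared separately as the glandular name and the name at the start of the study's trajectory. Rectum was not purely glandular, since 65 of its 397 cells (16.4%) held 3 or more fibroblast genes, against 1 of 316 Hybrid cells. Against Rectum, 1184 of 10193 genes were higher in Hybrid (11.6%) and 1274 lower (12.5%). All 4 wound keratins and 6 of 8 stratified basal genes were higher, while 8 of 10 absorptive genes of the rectum and 9 of 9 goblet genes were lower. Against Basal, 1137 of 10345 genes were higher (11.0%) and 598 lower (5.78%). Here 8 of 9 absorptive genes and 7 of 7 goblet genes tested were higher, and 7 of 8 stratified basal genes were lower. Of the 50 Hybrid cells with 3 or more absorptive genes, 16 were in group 5 and 14 in group 7. Of the 36 with 3 or more goblet genes, 6 were in group 5 and 15 in group 7. The list counts over Basal were not repeated without these groups. The 5 largest ratios were hormone or granule genes in both comparisons. The most reduced genes over Rectum were Igkc, Igha, Lyz1, Clps and Guca2b, and over Basal Ppbp, Ltf, Sprr2d, Cxcl5 and Psca. In Rectum 5816 Igkc UMIs came from 2 cells and 1964 Igha UMIs from 3 cells. Lyz1, Clps and Guca2b were found in 44, 138 and 142 Rectum cells. The genes most reduced over Basal were also absent from most Basal cells. Ppbp, Ltf, Sprr2d, Cxcl5 and Psca were found in 38, 37, 23, 34 and 44 of the 573 Basal cells.

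Whether single cells held both a squamous and a glandular keratin was asked next, with Krt17 and Krt8. With all UMIs, 57 of 316 Hybrid cells (18%, 14.0 to 22.7) had a UMI of each, and 25 of these also had Muc13 (7.91%). Without group 7, 11 of 301 cells held all 3 genes (3.65%). In Rectum 100 of 397 cells did (25.2%). Thinned to 2000 UMIs, the shares were 3.26% (1.21 to 6.96) in Hybrid and 6.5% (4.16 to 9.59) in Rectum. Thinned and without group 7, the Hybrid share was 1.18% (0.144 to 4.21). Because shares move with depth, each cell was thinned to 2000 UMIs, which left out 132 Hybrid cells and between 5 and 43 cells of each other name. Then 14.1% (9.44 to 20) of 184 Hybrid cells held both keratins. The share was 17.2% (14.9 to 19.6) in Suprabasal, 11.3% (8.20 to 15.1) in Rectum, 6.19% in Regeneration, 1.06% in Basal and 0.489% in Wound_Stress. With group 7 counted, the interval of Hybrid overlaps those of Suprabasal and Rectum and lies above Basal.

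A Krt8 UMI was found in 29.9% of thinned Hybrid cells and in 14.5% (9.19 to 21.3) of those outside groups 5 and 7. Among the stratified names the share was 18.8% in Suprabasal, 9.53% in Regeneration, 5.62% in Wound_Stress and 4.08% in Basal. Outside groups 5 and 7 the Krt8 share of Hybrid was thus not above that of Suprabasal. A Krt17 UMI was found in 45.1% of thinned Hybrid cells and in 12.4% of thinned Rectum cells. For Krt17 the share was 90.5% in Suprabasal, 57.1% in Regeneration, 21.6% in Basal and 14.8% in Wound_Stress. How much of any of these shares comes from free RNA was not tested. With all UMIs, both keratins were present in each of the 15 Hybrid cells of group 7. Thinned to 2000 UMIs, both were present in 13 of these 15 cells. Without group 7, 7.69% (4.16 to 12.8) of 169 thinned Hybrid cells held both. This interval lies below that of Suprabasal and above those of Basal and Wound_Stress. It overlaps those of Rectum and of Regeneration (4.76 to 7.88).

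**Figure D3:**
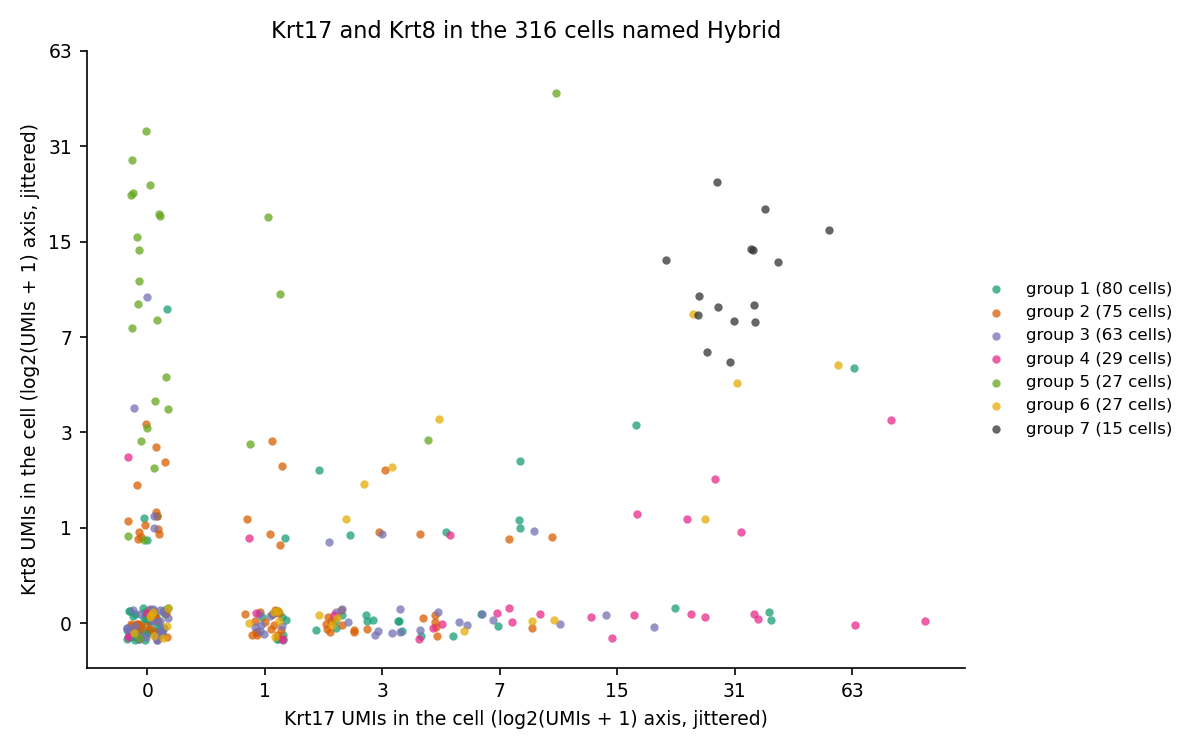
UMIs of Krt17 (x axis) and Krt8 (y axis) in each of the 316 Hybrid cells, on log2(UMIs + 1) axes with jitter, coloured by group. Group 7 (15 cells) lies together with both genes high, near a few cells of group 6, most cells of group 5 lie along the y axis with Krt8 and no Krt17, and most cells of group 4 lie along the x axis.

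Clustering of the Hybrid cells alone gave 7 groups, numbered by size with 80, 75, 63, 29, 27, 27 and 15 cells. Groups 1 and 5 were named from the marker lists. The other 5 were left without a name, by a judgement made after their leading genes were seen. Genes that lead a group are descriptions, since the clustering used them. In all, 125 Hybrid cells (39.6%) held 3 or more genes of the enteroendocrine, inner root sheath or lymphatic list, against 51 of the 3831 other named cells (1.33%), although the Hybrid cells were shallower. Of the 40 Hybrid cells with 3 or more enteroendocrine genes, 27 were in group 5 and 13 in group 7, and without group 7 the count over the 3 lists was 112 of 301 cells (37.2%). No Hybrid cell held 3 or more genes of 2 of these lists. The 3 lists were thus found in different Hybrid cells, and 191 cells (60.4%) met none of them. With 2 genes of a list as the minimum, the enteroendocrine, inner root sheath and lymphatic lists were met by 45, 53 and 53 Hybrid cells. In the other named cells they were met by 149, 380 and 13 cells.

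**Figure D4:**
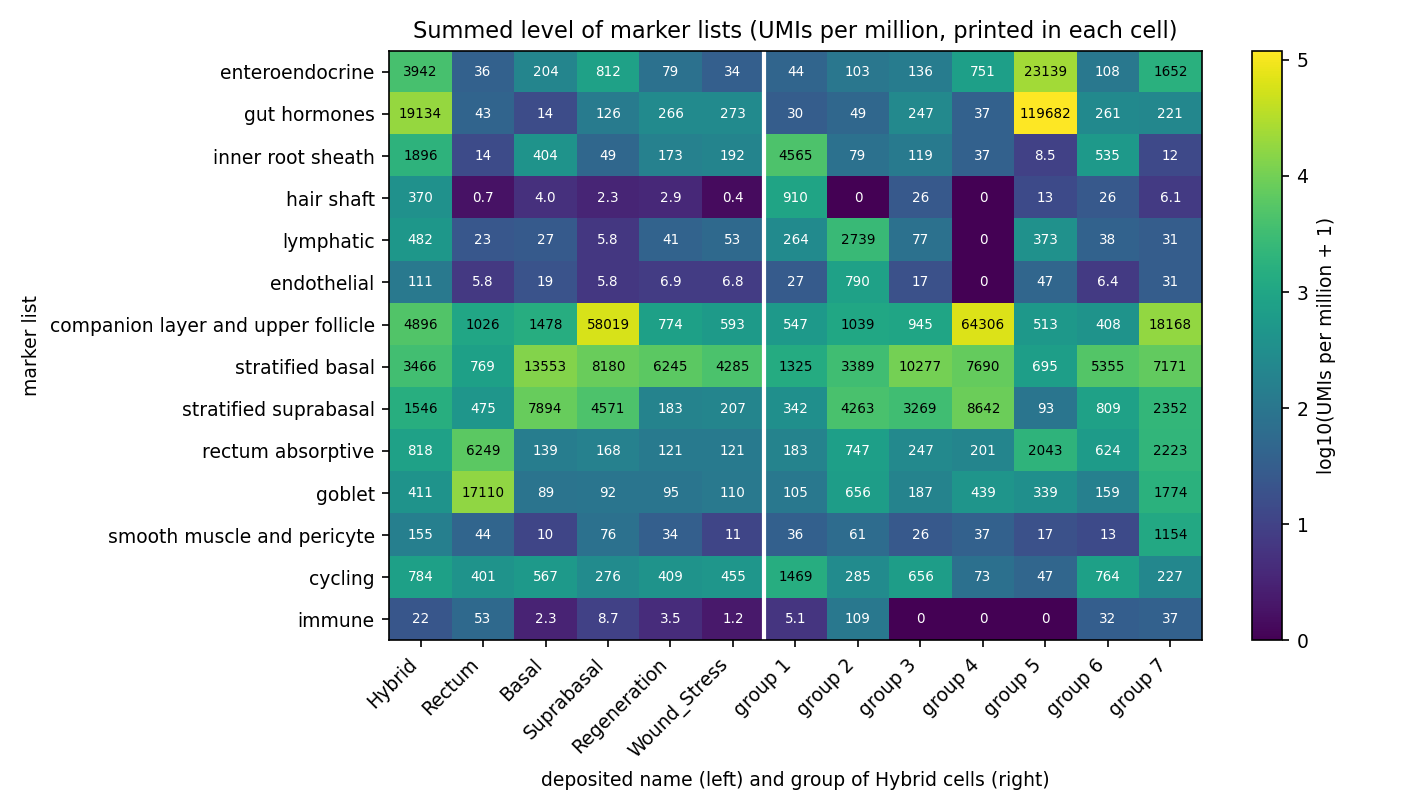
Summed levels of 14 marker lists in CPM (printed, and coloured as log10(CPM + 1)), for the deposited names (left of the white line) and the 7 groups of Hybrid cells (right). Gut hormones reach 119682 CPM in group 5, the inner root sheath list reaches 4565 CPM in group 1, and the lymphatic list reaches 2739 CPM in group 2.

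Group 5 (27 cells, median 7979 UMIs) was enteroendocrine-like. All 27 cells held at least 4 of the 15 enteroendocrine genes, and their summed level was 23139 CPM, against 286 CPM in the other named cells, where 11693 of 11994 UMIs were Cpe. Scg2, Neurod1, Pax6, Scgn, Fev and Rfx6 had no UMI in any of the 3831 other named cells. Gut hormones made up 119682 CPM of group 5, with Pyy alone at 100959 CPM (99681 to 102249). Against the rest of Hybrid, 19.8% of 5757 genes tested were higher and 14.7% lower, the largest share higher of the 7 groups. Cells with 3 or more enteroendocrine genes were also found among the named cells of the normal library, 7 of 939 (0.745%).

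Epcam, the marker of the sort, was detected in 23 of the 27 cells, Krt8 in 26 and the simple keratin Krt20 in 14. Krt17 was scarce, with 18 UMIs in 5 cells and 11 of them in 1 cell, and its level of 76.3 CPM (45.2 to 121) was below the 134 CPM of Rectum. Of the 638 Hybrid UMIs of Krt8, 342 came from this group. Scrublet scores were among the highest 6% in 11 of the 27 cells (40.7%), against 4.93% of the other named cells, and the part of doublets was not tested.

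The hormones divided the 27 cells. Pyy UMIs per cell ran from 0 over a median of 163 to 4893, and in the top cell Pyy was 25.7% of all UMIs. Pyy was held by 19 of the 27 cells, with 10 UMIs or more in each. Insl5 was found in 14 cells, all with Pyy, and Gcg, which encodes the incretin GLP-1, in 10 cells, all of which also held Insl5. L cells of the distal gut are known to make these 3 hormones together.

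Pancreatic polypeptide, encoded by Ppy (chromosome 11, 102099930 to 102101319, the same strand and region as Pyy), had 1458 UMIs in 10 cells, all of them with Pyy. The 2 genes were not proportional. The cell with 4893 Pyy UMIs had 715 Ppy UMIs, and the cell with 4381 Pyy UMIs had none. Sst marked 3 cells, with 25, 27 and 404 UMIs. Somatostatin is the hormone of D cells. These 3 cells had 18, 149 and 169 Pyy UMIs and no Insl5.

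Tph1, the rate-limiting enzyme of serotonin synthesis and marker of enterochromaffin cells, was found in 9 cells. All 8 cells without Pyy held Tph1, and 1 cell held both, with 26 Pyy UMIs and 1 Tph1 UMI. No cell held Tph1 together with Insl5, and none held Sst with Insl5. Krt20 was detected in 8 of the 9 Tph1 cells. Chgb had 911 UMIs in the cell that held both Tph1 and Pyy and between 12 and 256 UMIs in the 8 Tph1 cells without Pyy, while 562 UMIs were in a cell with Insl5 and no Tph1. Secretin (Sct) was spread over both kinds, in 19 cells.

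**Figure D5:**
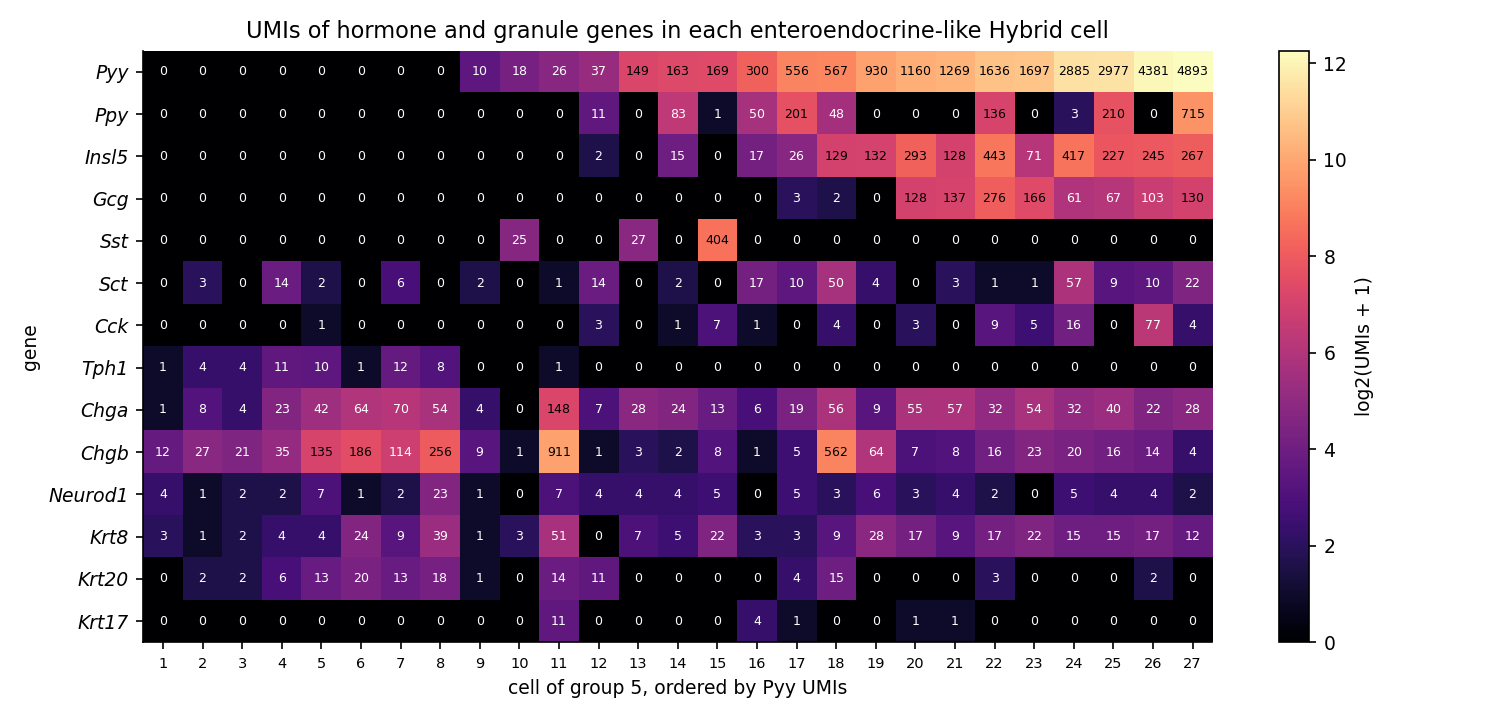
UMIs of hormone, granule and keratin genes (rows) in each of the 27 cells of group 5 (columns, ordered by Pyy UMIs), printed and coloured as log2(UMIs + 1). The 8 cells on the left have no Pyy and hold Tph1, the 3 cells with Sst have no Insl5, and Gcg appears in 10 cells that also hold Insl5.

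Transcription factors of this lineage were present at lower levels. Neurod1, which acts after commitment to the endocrine fate, had 105 UMIs in 24 of the 27 cells (445 CPM). Insm1 had 322 CPM in 20 cells, Fev 174 CPM in 17 cells and Pax6 161 CPM in 18 cells. Nkx2-2 had 46.6 CPM in 9 cells. Neurog3, the factor of endocrine progenitors, had no UMI in any Hybrid cell, and 9 UMIs in 1 Rectum cell. Over the 16 factors of the list the summed level was 458 CPM in Hybrid and 60.6 CPM in the other names, and 6 of the 16 were under 30 UMIs.

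Genes of granule processing and release were counted as well. The 12 prohormone processing genes together were at 4051 CPM in Hybrid and 296 CPM in the other names, and the 15 regulated secretion genes at 278 CPM and 34 CPM. Snap25, a membrane fusion protein, had 220 CPM in group 5, with 52 of the 52 Hybrid UMIs. Syt13, a synaptotagmin, had 123 CPM, also with all 29 Hybrid UMIs. The 10 nutrient, bile acid and related receptors were at 114 CPM and 20.2 CPM. Ffar2, a receptor for short-chain fatty acids, had 195 CPM in 12 cells, and Agtr1a, an angiotensin receptor, had 216 CPM in 13 cells and no UMI in the other names.

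The promoters of these granule and hormone genes were read for the cAMP response element, the letters TGACGTCA, which read the same on both strands. Of 24 genes of the prohormone processing and gut hormone lists, 22 had a window of 300 bases (250 before to 50 after a RefSeq start of the gene) in the RefSeq table of GRCm38.p6. The letters were present in 4 of them (18.2%), against 2.03% of all 27025 genes with a window. The 4 stretches of 60 bases are shown to let the element be compared between genes, with its letters in capitals, each 5′ to 3′ on the strand of the gene.

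Chgb (chr2:132781544-132781603, plus strand): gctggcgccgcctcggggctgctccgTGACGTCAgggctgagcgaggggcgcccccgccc
Pcsk1 (chr13:75089753-75089812, plus strand): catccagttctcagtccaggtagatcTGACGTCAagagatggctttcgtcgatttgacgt
Scg2 (chr1:79440061-79440120, minus strand): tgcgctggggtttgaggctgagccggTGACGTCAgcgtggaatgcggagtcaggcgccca
Sst (chr16:23890859-23890918, minus strand): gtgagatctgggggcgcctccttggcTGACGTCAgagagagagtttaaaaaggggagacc

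The element began 72, 78, 68 and 48 bases before the RefSeq start in Chgb, Pcsk1, Scg2 and Sst. GENCODE M21 begins the genes Chgb, Scg2 and Sst further upstream, and by that annotation their elements lie inside the gene. The match is a description of the letters and does not show that a factor was bound. Group 5 levels differed widely among the 4 genes, with 2461 UMIs of Chgb, 456 of Sst, 322 of Scg2 and 17 of Pcsk1.

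Group 1 (80 cells, median 5527 UMIs) was inner root sheath-like in 44 of its cells. Krt71, Krt25 and Krt27 of that list were among the 10 leading genes of the group, beside Krt35 of the hair shaft and Krt75 of the companion layer. The inner root sheath is the keratinised layer that moulds the growing hair, and it makes its own keratins. Krt25 was at 1775 CPM with 1048 UMIs in 41 cells, Krt71 at 1155 CPM in 26 cells and Krt28 at 813 CPM in 49 cells. The list was not restricted to Hybrid. In Basal, 816 Krt25 UMIs came from 8 cells and 746 Krt71 UMIs from 5 cells, and 45 cells of other names held 3 or more of the genes. Against the rest of Hybrid, 16.8% of 5757 genes tested were higher in group 1 and 12.6% were lower.

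The inner root sheath list divided the 80 cells into 44 that held 3 or more of its genes and 36 that held fewer. Krt25 was at 2726 CPM in the 44 and 14.5 CPM in the 36, and Krt71 at 1771 CPM and 14.5 CPM. The name of the group therefore describes the 44 only. The 36 were shallower (median 3983 UMIs against 6898) and had more mitochondrial UMIs (median 13.3% against 7.53%). In them Krt35, a keratin of the hair shaft and its cuticle, was at 1280 CPM in 14 cells, against 316 CPM in 3 of the 44. Krt17 was at 198 CPM in the 44 and 865 CPM in the 36, and Epcam was near equal at 230 CPM and 251 CPM. Proliferation was seen in both, with Mki67 in 27 of the 44 and in 20 of the 36 cells. Over the group Mki67 was at 567 CPM, against 126 CPM in the other named cells. At resolution 1.0 this group divided, with 49 of its cells in the larger part.

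Group 2 (75 cells, median 2076 UMIs, 18.1% mitochondrial UMIs) was left without a name because its leading genes came from different lineages. Lyve1, Ccl21a and Mmrn1, markers of lymphatic endothelium, came first, and Krt13 and Krt4, keratins of the squamous mucosa, came next. Ccl21a was at 1148 CPM in 44 cells and at 0.215 CPM in the other named cells. Flt4, the receptor of lymphatic growth factors, had 18 UMIs here and none in any other named cell. All 39 Hybrid cells with 3 or more lymphatic genes were in this group, and no cell of another name had as many. Against the rest of Hybrid, 4.62% of genes were higher in group 2 and 9.10% were lower.

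In those 39 cells the master regulator Prox1 was detected in 21, Vim in 34 and Ramp2 in 20. Krt14 was detected in 38 of the same 39 cells, Krt10 in 36, Krt13 in 35 and Epcam in 18. Pecam1, which encodes the CD31 used to remove endothelial cells in the sort, was found in 7. Keratins and lymphatic genes were thus counted in the same barcodes. Within the group Krt13 was at 1492 CPM in the 39 cells, at 1602 CPM in the 16 cells with 1 or 2 lymphatic genes and at 521 CPM in the 20 cells with none, whose median was 1082 UMIs. Krt14 was at 1416, 1602 and 2915 CPM in the same order, and Epcam at 238, 294 and 382 CPM. Gm42418 was at 66337, 60931 and 157719 CPM, its highest value in the 20 cells without a lymphatic gene. Krt13 was at 1443 CPM in Basal and at 1.90 CPM in Suprabasal. What part doublets or free RNA had in these barcodes was not tested.

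Group 3 (63 cells, median 1272 UMIs) had Krt15, Krt5 and Krt14 of the stratified basal list and Krt10 and Krt1 of the suprabasal list among its 10 leading genes, and was left without a name. The summed levels of these lists were 10277 CPM and 3269 CPM. Krt15, a keratin of basal and follicle progenitors, was at 1941 CPM, against 1259 CPM in Basal. Krt17 was at 1039 CPM (863 to 1240), above the 381 CPM of Basal, and Krt8 at 153 CPM (90.8 to 242) rested on 18 UMIs in 7 cells. Mitochondrial UMIs were at a median of 0.754%, against 8.53% in Basal, and 24 of the 63 cells were under 1000 UMIs. Few genes set it apart, with 2.41% higher and 6.27% lower than in the rest of Hybrid.

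Group 4 (29 cells, median 1526 UMIs, 1.27% mitochondrial) was led by Wfdc18, Defb6, Cst6 and Krt6a. Cst6, a cystatin of the upper follicle and ducts, reached 56194 CPM, and Krt79, a keratin of the same site, 6097 CPM. Suprabasal had 53234 CPM of Cst6 and 3509 CPM of Krt79. The level of Krt17, 10034 CPM (9211 to 10910), was the highest of the 7 groups and above the 7100 CPM of Suprabasal. Krt75, the companion layer keratin of the same list, had no UMI in the group, and none of the 8 lymphatic or 10 endothelial genes had any. The group was described by its leading genes and given no name. The shares of genes higher and lower than in the rest of Hybrid were 3.34% and 3.70%.

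Group 6 (27 cells, median 1228 UMIs) held immediate-early genes as its leading genes, among them Atf3, Ier3, Fos, Junb and Egr1. Atf3 was at 688 CPM and Fos at 1566 CPM, against 1269 CPM and 2671 CPM in Regeneration, the name in which both were highest. Depth varied from 510 to 27281 UMIs, with 13 cells under 1000 UMIs. Mitochondrial UMIs were at a median of 1.52%, against 8.49% in the other named cells. Scrublet scores were among the highest 6% in 6 of the 27 cells (22.2%), against 4.93% of the other named cells. The part of doublets was not tested. Across all Hybrid cells, 4 of 8 AP-1 genes were lower than in the other names (Atf3, Fosb, Fos and Fosl1), beside 4.41% of all genes, and 6 of 7 tested were higher than in Basal, beside 11.0% of all genes. Group 6 was given no name, since none of its 10 leading genes was in a list of cell type markers, although Atf3, Fos and Junb were in the AP-1 list. Against the rest of Hybrid, 2.29% of genes were higher and 7.49% lower.

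Group 7 (15 cells, median 10967 UMIs, 20.4% mitochondrial) was led by the smooth muscle genes Acta2, Myl9 and Tagln, followed by Sprr1a and Slpi of stressed squamous epithelium and Agr2 of goblet cells. It was left without a name. Every cell held Krt17 (22 to 52 UMIs, median 32.0), Krt8 (5 to 23, median 10.0), Krt14 (43 to 77, median 62.0), Acta2 (5 to 12, median 7) and Agr2 (1 to 11, median 5). Muc13 was found in 14 of the 15 cells and Pyy in none. Sst, Gcg and Insl5 were at 0, while Chgb had 155 UMIs and Chga 40 UMIs. These were thus the only Hybrid group in which squamous and glandular keratins were detected in each cell. Against the rest of Hybrid, 3.93% of genes were higher and 14.7% lower.

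The 15 barcodes of group 7 were alike to within little more than counting error. Over 243 genes the median ratio of variance between cells to the counting variance was 1.13. It was 1.97 to 3.26 in the other 6 groups and 2.55 to 4.15 in cells of other names at the same depth. A per-cell distance from the mean profile of the 15 cells, scaled to 1 for counting error alone, was 1.08 to 1.34 in the 15 and at least 1.83 in all cells of other names with 5000 UMIs or more. The barcodes themselves differed in a median of 12.0 of 16 bases (lowest 5). The spread of Krt17 and Krt8 among these cells is therefore no measure of variation between cells, and shares over all Hybrid cells count the 15 barcodes as 15 cells. At resolution 0.3 the clustering joined all 15 with group 4. Group 7 held 5 of the 39 Hybrid cells with the highest Scrublet scores, and the part of doublets was not tested.

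The remaining lists were markers of cells that the sort was meant to leave out or that are rare in this tissue. Beside them stand the 10.7% of all genes that were higher and the 4.41% that were lower. Of 6 smooth muscle and pericyte genes 4 were higher in Hybrid (Des, Tagln, Myh11 and Acta2), and 188 of the 230 UMIs of the list were in group 7. Of 6 fibroblast genes tested 1 was higher, Dcn, a collagen-binding proteoglycan, with 169 of its 212 UMIs in group 1, while Pdgfra and Lum were at 0. Of 3 immune genes tested none was on either side, and groups 3, 4 and 5 held no UMI of the 10 immune genes. Of 6 genes of Merkel cells, the touch receptors of the skin, 3 were higher (Krt20, Isl1 and Piezo2) and 2 were lower (Sox2 and Atoh1). In group 5 Sox2 and Atoh1 were at 0. The tuft, Schwann and melanocyte lists each had 1 gene higher, Dclk1, Ncam1 and Kit, and Trpm5, Sox10 and Tyr, which define these cells, had no UMI in Hybrid. Of 10 sebaceous and anal gland genes 6 were lower and none was higher.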

How the data were processed

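Droplet 3' RNA sequencing was analysed for 1 wounded library, with the normal library used only for its names and marker lists. The UMI counts per gene and barcode were made by the authors with Cell Ranger (3.1.0 per the labels, 4.0.0 in the header of the wounded counts) on mm10, and names came from their Seurat 3.2.2 clusters. The deposited table of named cells holds values on a natural log scale, and after that log was undone all 10523096 were whole within 0.001. Their median sum was 8773 per Hybrid cell against 2388 UMIs of the same genes, and how they were made is not given in the sources used here. They were therefore only an alternative.

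UMIs were summed over cells and compared as log2 ratios with exact binomial intervals. Levels have exact Poisson and shares Clopper-Pearson intervals at 95%, and a count of 0 stood for up to 3 counts. A gene was called higher or lower at 2-fold with an interval without 0, among genes with at least 30 UMIs over both sides. Hybrid cells were clustered with 1000 variable genes, 10 principal components, 15 neighbours and Leiden resolution 0.5 (scanpy 1.11.5, igraph 0.11.9, scipy 1.17.1, numpy 2.4.6, pandas 2.3.3, python 3.11.15). Scrublet called 1 of 5225 filtered cells, which was taken as not having worked, and no cell was removed as a doublet. Filters were over 200 and under 5000 genes and under 25% mitochondrial UMIs. The libraries shared 1 barcode, which had no name.

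Named genes were the label markers, the members of the marker and pathway lists, the 25 largest and 10 smallest ratios with at least 100 UMIs, the 5 largest each way against Rectum and Basal, and the 5 leading genes of each group with at least 50 UMIs. Other leading genes of groups 3, 6 and 7 were named after their values were seen. The members and lists were chosen with earlier results of these data known. Tested on simulated counts for Hybrid over the other names, with 200 of 13526 genes changed, 96.5% of the intervals held the true value, 168 changed genes had an interval without 0 and 128 unchanged genes were past the fold. Alternatives were the count minimum, mean per-cell CPM, a 10% mitochondrial limit, cells without the highest Scrublet scores, the deposited numbers, thinning depth and cluster settings. Leaving out groups 5 and 7 was added after seeing the data.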

Additional observations from a re-analysis of the deposited data

Results flagged for a closer look

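Signals of the kinds seen in Hybrid also appeared in wounded barcodes that had no name and entered no comparison. Of 1078 unnamed cells that passed the filters, 12 (1.11%) held 3 or more inner root sheath genes, above the 0.278% that a count of 0 allows but no more than the 1.17% of the named cells outside Hybrid. Of the same cells 6 (0.557%) held 3 or more lymphatic genes, which 0 of those 3831 named cells did. Among the 610 unnamed cells of the normal library that passed the same filters, 12 held the inner root sheath genes and 5 the lymphatic genes. With 3 or more enteroendocrine genes there was 1 of the 1078 unnamed wounded cells (0.0928%), and in the normal library 7 of 939 named cells (0.745%). Of the 11991 wounded barcodes outside the filters 24 (0.200%, 0.128 to 0.298) held 3 or more enteroendocrine genes, 24 the inner root sheath genes and 5 the lymphatic genes. Also, 2 unnamed barcodes matched the mean profile of group 7 as closely as its own 15 cells did. Their distances were 0.935 and 1.07, and their mitochondrial shares of 25.7% and 26.8% lay over the filter of 25%.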

How the results depend on the processing

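No paired analysis was possible because each condition is 1 library. The main numbers of genes were 1447 higher and 597 lower over the other names, 1184 and 1274 over Rectum, and 1137 and 598 over Basal. With at least 1 UMI the numbers higher were 2189, 2324 (Rectum) and 2362 (Basal). With at least 100 UMIs they were 435 higher and 836 lower over Rectum, and 374 and 378 over Basal. With the deposited numbers they were 579 and 1922 over the others, 757 and 2777 over Rectum, and 621 and 1524 over Basal. Without group 5, 917 were higher over the others and 756 over Basal. Of the 25 leading genes, 9 were still higher without group 5 and 6 without groups 5 and 7.

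The log2 ratio of Krt17 over the other names (-1.04) was 0.07 as the mean of per-cell CPM, a reversed sign, -1.42 under 10% mitochondrial UMIs, -0.33 with the deposited numbers, -1.34 without group 7 and -0.80 without group 5. Krt8 (0.53) was 0.25, 1.08, 0.14, 0.24 and -0.33 in the same order, 0.08 without the highest Scrublet scores and -1.41 without both groups. Muc13 (0.00) was -0.71 per cell, -0.83 deposited, -0.42 without group 7, -0.59 without group 5 and -1.70 without both. Pyy (12.09) was 10.48 per cell, 13.39 under 10% mitochondrial UMIs, 11.37 without the highest Scrublet scores, 10.82 deposited, 0.13 without group 5 and 0.33 without both. Over Rectum, Pyy became -1.21 without group 5 and -1.0 without both. Igkc had no UMI in Hybrid. Its ratio with 3 counts in place of 0 was -6.11, with an exact upper limit of -5.81. The ratio became 2.05 without the highest Scrublet scores, where it gives no direction. Beyond the groups left out, the cause was not tested.

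Thinned to 1000 and 4000 UMIs, the share of Hybrid cells with Krt8 (29.9%) was 19.0% and 45.4%, with Muc13 (10.9%) 5.93% and 18.5%, and with Krt17 and Krt8 (14.1%) 7.11% and 26.9%. The last was 5.98% with 2 UMIs of each gene and 7.69% without group 7. With 2 UMIs of each gene and without group 7 it was 1.18%, against 3.43% in Suprabasal and 2.82% in Rectum. Cells with lymphatic genes (39) were 22 with 4 genes required and 23 when thinned to 2000 UMIs, and those with inner root sheath genes (46) were 29 when thinned. The 27 cells of group 5 formed 1 group under each cluster setting, and others did not. At resolution 0.3, 50 of 80 cells of group 1 and 62 of 63 of group 3 fell into 1 group of 112. With 20 principal components, 57 cells of group 3 and 20 of group 6 shared a group of 96, and with the marker genes left out group 7 fell into a group of 39. Among 34 other named genes, 132 of 237 alternatives moved the ratio by less than its interval. All intervals cover counting error only, and 1 pooled library gives no measure of variation between animals.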
